A study of Mus musculus with 44 samples.

Results

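The nuclear-encoded subunits of the mouse respiratory chain were followed by RNA-seq in liver and brain. Members were all protein-coding genes whose symbol in the GENCODE M21 annotation begins with Nduf, Uqcr, Atp5 or Cox4 to Cox8, or is Sdha, Sdhb, Sdhc or Sdhd, and they were found by Ensembl identifier. The rule used names and no measured value, and it gave 94 of the 54446 genes in the table. By name, 38 belong to complex I, 4 to complex II, 8 to complex III, 18 to complex IV and 18 to complex V, and 8 are complex I assembly factors (Ndufaf), which are not subunits of the finished enzyme. Ndufa4 is now placed in complex IV, but it and its paralog Ndufa4l2 were counted with complex I by name throughout. Atp5o is listed under 2 identifiers, one of them at 0 counts in every library, so the 94 genes carry 93 symbols. They lie on 19 chromosomes, 3 of them on the X, and none on the mitochondrial chromosome.

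Male C57BL/6 mice were fed a control diet (CD) or a ketogenic diet (KD), a very low carbohydrate, high-fat diet under which the liver makes ketone bodies. Whole brain was taken at 12 months of age from 5 CD mice and from 7 mice given KD ad libitum for one week. At 26 months, 8 whole brains and 8 livers were taken from CD mice and 8 of each from mice on a cyclic KD. In that diet KD and CD alternated week by week from 12 months onward (called the one-year KD). The cyclic KD tissues were collected during a CD week, in the dark phase, so those mice were not eating KD when killed. No genotype, cage, day or batch is labelled, and the labels number brains and livers alike without stating that a number marks 1 mouse.

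The respiratory chain sits in the inner mitochondrial membrane. Complex I takes electrons from NADH and complex II takes them from succinate, as a part of the citric acid cycle. Both pass them through ubiquinone to complex III and through cytochrome c to complex IV, which reduces oxygen, and complex V uses the resulting proton gradient to make ATP. Every complex but II also holds subunits made from mitochondrial DNA, while the genes described here are nuclear. Liver feeds the chain largely from fatty acids and brain from glucose and, when glucose is scarce, from ketone bodies. Several complex IV subunits and the c subunit of complex V exist in more than one gene copy, used by different tissues.

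Total counts ranged from 6879726 to 12682087 in the 16 livers and from 7447742 to 12744415 in the 28 brains. The members together took 0.347% to 0.682% of a library. The tissue labels held. Summed hepatocyte markers were 12735 to 41976 CPM (counts per 1000000 counts) in liver and 3.85 to 732 CPM in brain, and summed neuron markers were 4051 to 6108 CPM in brain and 8.69 to 46.3 CPM in liver. Ttr is in both the hepatocyte and the choroid plexus list, and its part in the brain sums was not tested. Within the CD livers, replicates 3, 5, 6 and 7 stood apart. Summed neutrophil markers ranged over 158 to 1655 CPM there, over 11.9 to 17.8 CPM in CD livers 1, 2, 4 and 8, and over 16.0 to 72.5 CPM on KD. In the same order, markers of Kupffer cells (the macrophages of the liver) had ranges of 2129 to 3291, 142 to 776 and 144 to 1477 CPM, and hepatocyte markers had ranges of 12735 to 21068, 34616 to 41253 and 23852 to 41976 CPM. Liver results are therefore given with all libraries and, where a call, a direction or a size changed, also without these 4, a choice made after seeing the data. In whole tissue, fewer cells of a type and less RNA per cell cannot be told apart.

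Because a longer transcript yields more counts, levels are compared between genes only as CPM per kb of exon, here with libraries scaled within each tissue. In the 26-month CD brain the median member of complex III stood at 43.9 CPM per kb, of complex IV at 43.4, of complex II at 32.6, of complex I at 17.6 and of complex V at 11.8. The assembly factors were lower, with a median of 7.50. Cox8a, a small complex IV subunit, had the highest level in both tissues, 255 CPM per kb in brain and 211 in CD liver. In brain the other complexes were led by Atp5b (the catalytic β subunit of ATP synthase, 106), Ndufc2 (a small membrane subunit of complex I, 90.6), Uqcrb (a ubiquinone-binding protein of complex III, 55.5), Sdha (the flavoprotein that oxidizes succinate, 50.1) and Ndufaf5 (13.3). In liver they were led by Atp5a1 (the α subunit, 115), Sdhd (a membrane anchor of complex II, 95.9), Uqcrb (86.4), Ndufa1 (a complex I membrane subunit encoded on the X, 84.2) and Ndufaf1 (9.05). Among the genes that passed the filter on low counts in that tissue, the lowest of each complex and of the assembly factors were also taken. In brain they were Sdhc (16.4), Uqcrc1 (22.6), Cox4i2 (1.02), Atp5l (3.80), Ndufa4l2 (0.87) and Ndufaf2 (1.90), and in liver they were Sdhc (34.6), Uqcrc1 (25.7), Cox7a1 (1.83), Atp5s (2.16), Ndufb2 (1.74) and Ndufaf2 (1.07). The choice of exon length mattered. With the length of the principal transcript in place of all annotated exons, the median of complex V in brain was 45.0 CPM per kb rather than 11.8. The highest member set with complex I by name was then Ndufa4, now placed in complex IV, in both tissues (108 in brain, 126 in liver). Atp5b (247) and Atp5g3 (242) stood above Cox8a (238) in liver.

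Levels of Atp5l, Ndufs5 and Atp5g2 are uncertain for another reason. Of the 93 members with a transcript to search, 29 had at least 1 annotated pseudogene with 90% identity or more over 200 bases or more, 67 pseudogenes in all and 13 for Atp5l. Counts assigned to those pseudogenes made up 16.2% of the combined counts for Atp5l in brain and 29.5% in liver, 12.0% and 18.3% for Ndufs5, and 13.1% and 7.29% for Atp5g2.

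The tissues differed in the make-up of the chain. Of the CPM of all nuclear subunits, complex II took 7.90% to 9.01% in the 8 CD brains at 26 months and 9.67% to 12.0% in the 8 CD livers. Complex III took 9.18% to 9.80% in brain and 10.3% to 12.9% in liver. For both complexes every liver lay above every brain. Complex I took 30.5% to 31.6% in brain and 27.3% to 30.0% in liver, where every liver lay below every brain. Complex IV took 18.1% to 19.3% and 14.7% to 18.8%, and complex V 32.1% to 33.1% and 31.2% to 33.4%, so the ranges of these complexes overlapped. In CD livers 1, 2, 4 and 8 alone the shares lay farther from brain, with 11.6% to 12.0% for complex II, 12.6% to 12.9% for complex III, 27.3% to 27.7% for complex I and 14.7% to 15.2% for complex IV, which then lay below every brain. The 8 KD livers had shares close to the CD livers, with means ± SD (n = 8) of 11.6% ± 0.41 against 11.1% ± 0.89 for complex II and 12.4% ± 0.24 against 11.7% ± 1.12 for complex III.

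Gene by gene, CD liver was compared with CD brain at 26 months by the quasi-likelihood test of edgeR with Benjamini-Hochberg adjustment over all genes. Most genes differ between organs, and 77.9% of the 23556 genes tested passed an adjusted p of 0.05, 35.3% higher in liver and 42.6% lower. Of 90 members tested, 42 were higher in liver and 12 lower, and their median log2 difference (liver minus brain) was 0.35 against -0.17 over all genes. Without CD livers 3, 5, 6 and 7, 67 were higher and 7 lower with a median of 0.69, against 29.2% of 26340 genes higher, 39.5% lower and a median of -0.19. Of the calls with all libraries, 40 higher and 7 lower ones were kept, 2 higher and 5 lower ones were lost, and 27 higher ones were gained. In 77 of the 87 members tested within liver, all 4 lay below the other CD livers. Higher calls gained without them, here and below, therefore follow from which livers were left out and are no separate result. Without a filter on low counts the numbers were 21 and 20, and with libraries scaled by total counts alone 20 were lower. The main fit took all libraries as independent, and the replicate block, given at the end, called fewer members higher. Between the tissues, the share of all genes called is given only for the main fit and the fit without the 4 livers. Numbers of members called under other settings, here and below, have no background beside them.

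**Figure D1:**
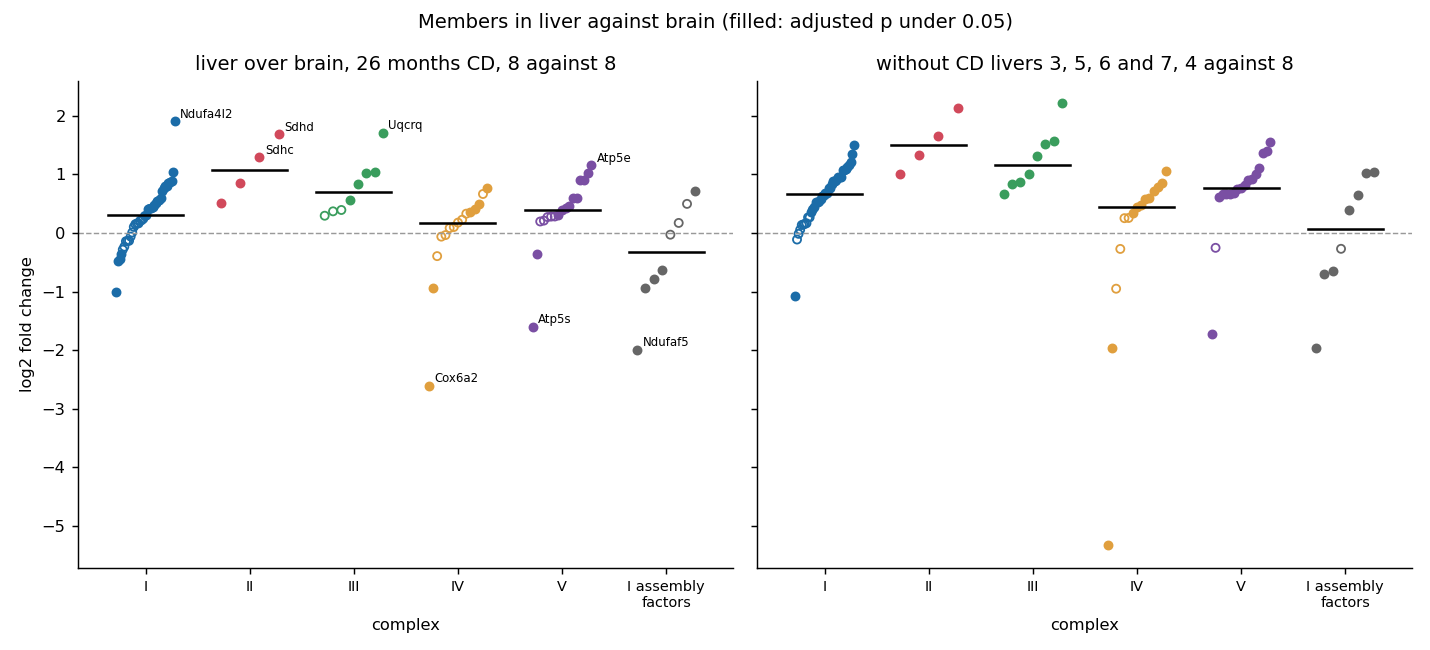
Log2 difference between CD liver and CD brain at 26 months (vertical axis) for each tested member, by complex (horizontal axis). Filled points have an adjusted p under 0.05 and the black line is the median of each complex. The left panel holds all 8 livers and the right panel leaves out CD livers 3, 5, 6 and 7, where the medians of complexes II and III are 1.497 and 1.162 instead of 1.073 and 0.704.

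All 4 genes of complex II were higher in liver. Succinate dehydrogenase is made of Sdha, of Sdhb, which carries the iron-sulfur clusters, and of the anchors Sdhc and Sdhd. On the scale shared by both tissues, Sdhd (chromosome 9, 50596357 to 50603812, GRCm38) had a lowest, median and highest level of 36.5, 38.9 and 45.7 CPM in brain and 63.1, 127 and 212 CPM in liver, and the ranges did not overlap. Its log2 difference was 1.68 (SE 0.18, adjusted p = 1.282e-09, edgeR). Sdhc (chromosome 1, 171127165 to 171150603) stood at 41.1, 52.0 and 54.9 CPM in brain and 66.2, 125 and 185 CPM in liver, again without overlap, a log2 difference of 1.29 (SE 0.15, adjusted p = 6.754e-09, edgeR). The catalytic subunits differed less and their ranges overlapped. Sdhb was at 51.0, 64.2 and 74.5 CPM in brain and 53.0, 124 and 183 CPM in liver, a log2 difference of 0.86 (SE 0.20), and Sdha at 169, 190 and 217 CPM in brain and 120, 285 and 448 CPM in liver, a log2 difference of 0.52 (SE 0.20, adjusted p = 0.017, edgeR). The log2 differences without the 4 livers were 2.14, 1.66, 1.34 and 1.01 for Sdhd, Sdhc, Sdhb and Sdha, all called. Over the 10 settings that kept those livers, the median of complex II stayed between 0.79 and 1.09, with 3 or 4 of its genes called higher and none lower.

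Complex III moved the same way, with 5 of 8 genes higher in liver, none lower and a median of 0.70. Uqcrq, a small subunit (chromosome 11, 53427922 to 53430831), had 36.9, 41.2 and 48.5 CPM in brain and 59.2, 134 and 218 CPM in liver, with no overlap and a log2 difference of 1.71 (SE 0.20, adjusted p = 6.559e-09, edgeR). Uqcrfs1, the Rieske iron-sulfur protein, had 52.7, 57.2 and 63.3 CPM in brain and 55.8, 107 and 196 CPM in liver, ranges that overlapped at the low livers, with a log2 difference of 1.02 (SE 0.19). Uqcr11 (1.04), Uqcrb (0.84) and Uqcr10 (0.57), all small subunits, were also called. The core proteins Uqcrc1 and Uqcrc2 had log2 differences of 0.39 and 0.37 with adjusted p-values of 0.065 and 0.069 (edgeR), and the hinge protein Uqcrh 0.29 with 0.081. These 3 were called without the 4 livers (0.88, 0.84 and 0.66, adjusted p = 4.803e-06, 1.911e-06 and 0.0001105, edgeR), when all 8 genes of the complex were higher in liver with a median of 1.16. Across the same 10 settings the median of complex III ran from 0.41 to 0.73, with 4 or 5 genes higher.

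Complex I had 18 genes higher in liver and 4 lower of 38, with a median of 0.30, and without the 4 livers 27 higher and 1 lower with a median of 0.66. Among core subunits, Ndufs3 (0.51) and Ndufs8 (0.55) were higher in liver, and Ndufs1 (-0.13), Ndufs7 (0.22), Ndufv1 (0.16) and Ndufv2 (-0.14) did not pass the test. Without the 4 livers Ndufs7 (0.69, adjusted p = 0.0001334) and Ndufv1 (0.64, adjusted p = 0.000213, edgeR) were called higher, and Ndufs1 (0.26) and Ndufv2 (0.13) had values above 0 that did not pass. Ndufs1, the largest of them, had 107, 118 and 122 CPM in brain and 56.7, 108 and 166 CPM in liver. The accessory subunit Ndufa6 was higher, with 28.7, 33.6 and 40.9 CPM in brain and 39.4, 69.8 and 112 CPM in liver, a log2 difference of 1.04 (SE 0.18, adjusted p = 5.633e-06, edgeR). Another accessory subunit, Ndufb2 (chromosome 6, 39592574 to 39603382), went the other way, with 11.8, 22.7 and 26.5 CPM in brain and 8.72, 10.2 and 14.5 CPM in liver, a log2 difference of -1.01 (SE 0.14, adjusted p = 1.782e-07, edgeR). It was at -1.08 without the 4 livers and alone in being called lower. With all livers the accessory subunits Ndufa12 (-0.49), Ndufb4 (-0.44) and Ndufs5 (-0.36) were also called lower, and without the 4 they were at -0.11, -0.02 and 0.05 (adjusted p = 0.45, 0.93 and 0.75, edgeR), with Ndufs5 turned. The median of complex I ranged from 0.03 to 0.32 over the 10 settings, with 9 to 19 genes higher and 2 to 10 lower.

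In complex IV the direction depended on the setting and on the 4 livers. Of 15 genes tested 4 were higher in liver (Cox5a, Cox7c, Cox7a2l and Cox6b1) and 2 lower (Cox6a2 and Cox6b2), with a median of 0.18. That median turned negative with limma (-0.03), with total counts alone (-0.07) and without the filter (-0.18). Without the 4 livers 9 genes were higher and 2 lower, with a median of 0.44, and Cox4i1 (0.58), Cox7a2 (0.60), Cox7b (0.47), Cox6a1 (0.79), Cox6c (0.44) and Cox5b (0.33) were among the higher ones. Cox5a, a subunit on the matrix side, stood at 24.0, 30.4 and 33.6 CPM in brain and 25.7, 49.5 and 70.1 CPM in liver, a log2 difference of 0.77 (SE 0.15). Its partner Cox5b stood at 49.4, 61.6 and 64.9 CPM and 33.1, 61.0 and 85.3 CPM, a log2 difference of -0.04 (SE 0.15) with all livers.

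Complex V had 10 genes higher in liver and 2 lower of 17, with a median of 0.39 that ranged from 0.11 to 0.41 over the 10 settings. Without the 4 livers 15 were higher and 1 lower, with a median of 0.77. The highest differences with all livers were those of 2 small proteins of the central stalk, Atp5e and Atp5d, and of the c subunit genes Atp5g2 and Atp5g3 described with their sequences. Atp5e, the ε subunit (chromosome 2, 174461072 to 174464105), had 11.9, 14.8 and 18.2 CPM in brain and 19.0, 33.0 and 47.9 CPM in liver without overlap, a log2 difference of 1.16 (SE 0.16, adjusted p = 1.183e-07, edgeR), and Atp5d, the δ subunit, differed by 0.90 (SE 0.18). Of the catalytic head, Atp5a1 was higher in liver by 0.59 (SE 0.18, adjusted p = 0.004, edgeR), and Atp5b had a log2 difference of 0.28 (SE 0.16, adjusted p = 0.109, edgeR), which was 0.69 without the 4 livers (adjusted p = 1.692e-05, edgeR). Atp5s, the coupling factor B (chromosome 12, 69724950 to 69744660), was much lower in liver. It had 13.5, 14.4 and 16.7 CPM in brain and 3.31, 4.66 and 5.67 CPM in liver, so every liver lay far below every brain, and its log2 difference was -1.60 (SE 0.11, adjusted p = 2.385e-14, edgeR), and -1.72 without the 4 livers. The lower call of Atp5l (-0.37) was lost there (-0.25, adjusted p = 0.13, edgeR).

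Of the 8 assembly factors, Ndufaf8 was higher in liver (0.71) and Ndufaf2, Ndufaf3, Ndufaf5 and Ndufaf7 were lower with all livers. The median was -0.33 and lay between -0.60 and -0.31 in the 10 settings. Without CD livers 3, 5, 6 and 7 it was 0.06, with 4 higher and 3 lower. Ndufaf5, which modifies the core subunit Ndufs7 (chromosome 2, 140170649 to 140203689), had 18.4, 22.3 and 27.1 CPM in brain and 4.58, 5.64 and 6.57 CPM in liver. No liver came near any brain, and the log2 difference was -1.99 (SE 0.09, adjusted p = 1.785e-18, edgeR), from -2.03 to -1.95 when each library was left out in turn. Ndufaf3 (-0.94), Ndufaf7, a methyltransferase (-0.79), and Ndufaf2 (-0.63) differed less. Ndufaf1 (-0.03), Ndufaf4 (0.17) and Ndufaf6 (0.50, adjusted p = 0.052) did not pass. Without the 4 livers these 3 were called higher (0.39, 0.65 and 1.03, adjusted p = 0.012, 0.0001857 and 3.181e-07, edgeR), and Ndufaf2 was no longer called (-0.27, adjusted p = 0.26, edgeR).

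Where the chain has a common and a tissue-restricted gene for the same place in the complex, both tissues were dominated by the common one. In CPM per kb on the scale shared by both tissues, used for these gene pairs throughout (mean ± SD, n = 8 each), Cox6a1 was at 91.6 ± 13.2 in brain and 115 ± 50.7 in liver, and Cox6a2, the heart and skeletal muscle form, at 5.46 ± 2.06 and 0.84 ± 0.94. The 2 proteins are identical at 60% of their aligned residues. Cox6a2 (chromosome 7, 128205435 to 128206387) had 1.58, 3.62 and 5.84 CPM in brain and 0, 0.36 and 1.81 CPM in liver, 55 counts over all 8 livers, and a log2 difference of -2.61 (SE 0.46, adjusted p = 6.286e-06, edgeR). Those 55 counts were uneven. Livers 3, 5, 6 and 7 held 52 of them, with 0.91 to 2.66 CPM per kb, and the other 4 livers held 3. Without the 4 livers the log2 difference was -5.33 (SE 0.55, adjusted p = 1.49e-09, edgeR), and that of Cox6a1 went from 0.33 (adjusted p = 0.13) to 0.79 (adjusted p = 0.0001873, edgeR). Summed striated muscle markers ranged over 10.1 to 11.9 CPM in the 4 livers. The other 4 had a lowest, median and highest sum of 5.32, 6.18 and 32.9 CPM. The part of the striated muscle, neutrophil and Kupffer cell markers in these Cox6a2 counts was not tested.

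Cox4i1 was at 52.8 ± 4.86 CPM per kb in brain and 61.7 ± 20.02 in liver, a log2 difference of 0.22 (adjusted p = 0.16) that was 0.58 without the 4 livers (adjusted p = 0.0002491, edgeR), and Cox4i2, the lung form linked to low oxygen, at 0.95 ± 0.24 and 1.49 ± 1.19. Cox4i2 was again higher in the 4 livers, at 1.64 to 3.16 CPM per kb against 0 to 0.97 in the other 4. Its log2 difference between the tissues was 0.66 (SE 0.53, adjusted p = 0.25, edgeR) and -0.95 without the 4 livers. Cox6b1 was at 122 ± 10.9 and 157 ± 52.2 CPM per kb and its testis form Cox6b2 at 1.51 ± 0.35 and 0.77 ± 0.62, a log2 difference of -0.95 (SE 0.36, adjusted p = 0.017, edgeR) and of -1.97 without the 4 livers. Cox7a2 was at 42.7 ± 5.76 and 48.3 ± 19.2 and the muscle form Cox7a1 at 2.63 ± 1.01 and 1.99 ± 0.46, and neither difference passed the test (adjusted p = 0.35 and 0.17, edgeR). Cox7a2 was called higher in liver without the 4 livers (0.60, adjusted p = 0.0002846, edgeR) and Cox7a1 was not called (-0.27). Cox7a2l, a relative of them that helps join complexes III and IV, was at 40.8 ± 3.75 and 54.1 ± 10.01, higher in liver by 0.41 (SE 0.11, adjusted p = 0.001, edgeR), and 0.26 without the 4 livers (adjusted p = 0.083, edgeR).

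Cox8a was at 239 ± 25.2 and 229 ± 66.0 CPM per kb, a log2 difference of -0.06 (SE 0.14), and 0.25 without the 4 livers. Its muscle form Cox8b, 42.7% identical, had 42 counts over the 8 brains and 21 over the 8 livers. Its testis form Cox8c had 1 count in the brains and none in the livers, where 0 counts allow up to 0.0333 CPM over the 8 libraries together (3 counts, counting error only). Cox7b2, also of testis, had 35 counts in the brains and 2 in the livers, beside 7563 and 7274 for Cox7b. Ndufa4, named for complex I and now placed in complex IV, was at 44.8 ± 4.30 and 60.3 ± 26.0 CPM per kb, higher in liver by 0.43 (SE 0.18, adjusted p = 0.032, edgeR), and by 0.88 without the 4 livers. Its paralog Ndufa4l2, induced by low oxygen, was at 0.82 ± 0.38 and 3.07 ± 4.48. The liver mean rested on CD liver 3 with 14.01 CPM per kb, when the other livers had 0.88 to 2.83. The log2 difference of 1.91 (SE 0.46, adjusted p = 0.0004339, edgeR) fell to 0.88 without that liver, and without livers 3, 5, 6 and 7 it was 0.40 with an adjusted p of 0.28 (edgeR). The calls of Cox6b1 and Ndufa4 were lost in 6 alternatives each, that of Cox7a2l in 3, that of Cox6b2 in 1 and that of Cox6a2 in none.

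**Figure D2:**
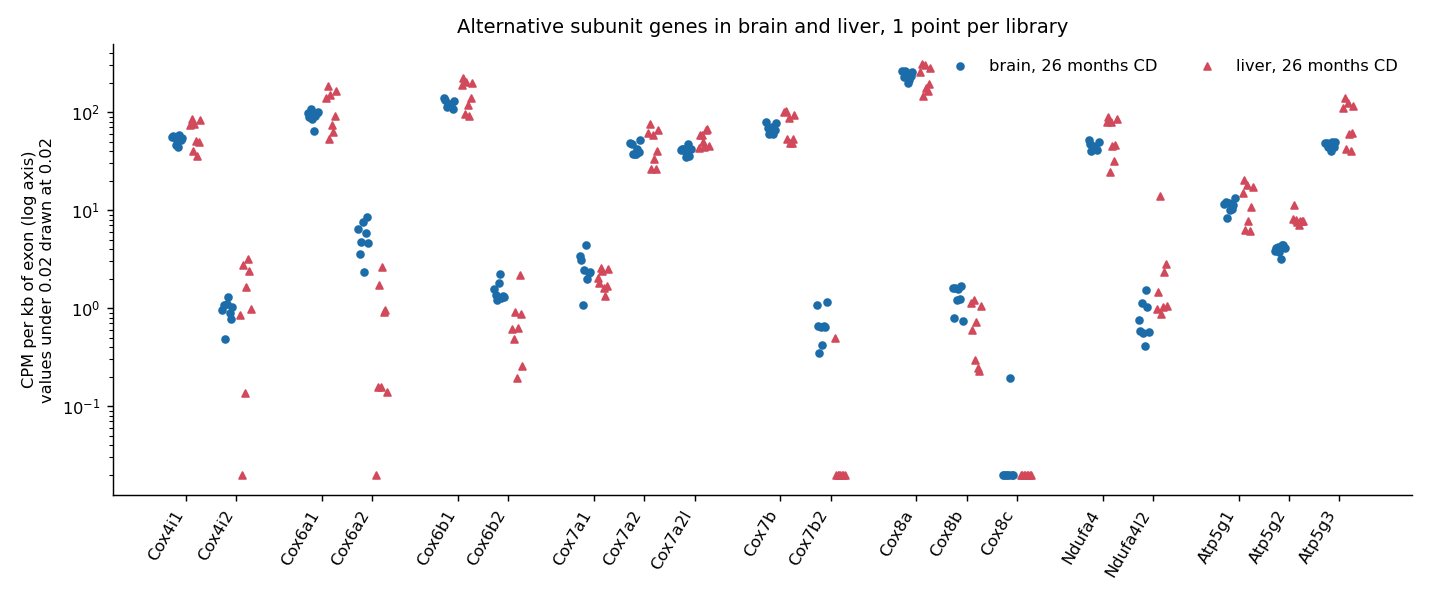
Level in CPM per kb of exon (log axis) of the common and tissue-restricted genes for the same subunit, in each of the 8 CD brains and 8 CD livers at 26 months. Each point is 1 library and values under 0.02, zeros included, are drawn at 0.02. Cox6a2 lies between 2.33 and 8.59 in brain and between 0 and 2.66 in liver, far under Cox6a1 in both.

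The c subunit, which forms the rotating ring of complex V, is the clearest case of several genes for one mature protein. Atp5g3 led in both tissues (46.2 ± 3.30 CPM per kb in brain, 86.7 ± 39.9 in liver, mean ± SD, n = 8), followed by Atp5g1 (11.1 ± 1.51 and 12.7 ± 5.69) and Atp5g2 (3.99 ± 0.40 and 8.16 ± 1.33). Atp5g2 had 5.32, 6.90 and 7.36 CPM in brain and 11.9, 13.04 and 19.05 CPM in liver, with no overlap and a log2 difference of 1.03 (SE 0.11, adjusted p = 1.143e-09, edgeR). Atp5g3 was also higher in liver (0.91, SE 0.19, with 87.3, 102 and 109 CPM against 88.1, 188 and 303 CPM), and Atp5g1 had a difference of 0.20 (SE 0.19, adjusted p = 0.349, edgeR). Without the 4 livers the 3 differences were 1.11, 1.39 and 0.66, and Atp5g1 was called (adjusted p = 0.0001763, edgeR). In the 4 livers that stood apart Atp5g2 was at 7.09 to 7.86 CPM per kb and in the other 4 at 7.52 to 11.4, while Atp5g3 was at 40.4 to 61.5 and 110 to 139. The 3 precursors have 136, 146 and 141 residues and end in the same 78, so the genes differ there only in silent positions. The coding bases of that shared end are shown because a read lying within it can be assigned to 1 gene only by those positions. All 3 genes lie on the minus strand (Atp5g1 chr11:96068852-96075670, Atp5g2 chr15:102662864-102672352, Atp5g3 chr2:73908447-73911326, GRCm38), and capitals mark the 63 of 234 bases at which the 3 are not all alike.
Atp5g1: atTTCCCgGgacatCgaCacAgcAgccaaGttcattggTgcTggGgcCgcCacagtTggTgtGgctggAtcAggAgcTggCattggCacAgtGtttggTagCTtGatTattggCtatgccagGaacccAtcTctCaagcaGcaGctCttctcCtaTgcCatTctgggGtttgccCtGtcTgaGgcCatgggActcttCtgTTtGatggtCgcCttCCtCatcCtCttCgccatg
Atp5g2: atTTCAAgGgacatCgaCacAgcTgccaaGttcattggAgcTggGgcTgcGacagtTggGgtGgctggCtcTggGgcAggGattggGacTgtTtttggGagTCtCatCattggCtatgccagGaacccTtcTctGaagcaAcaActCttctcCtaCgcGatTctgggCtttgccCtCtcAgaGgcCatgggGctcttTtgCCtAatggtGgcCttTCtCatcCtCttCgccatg
Atp5g3: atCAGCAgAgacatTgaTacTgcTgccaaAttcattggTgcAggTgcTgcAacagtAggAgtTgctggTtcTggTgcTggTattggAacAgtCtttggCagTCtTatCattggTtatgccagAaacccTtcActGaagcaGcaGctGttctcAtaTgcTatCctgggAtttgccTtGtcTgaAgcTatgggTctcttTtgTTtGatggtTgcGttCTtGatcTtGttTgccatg
In this stretch Atp5g1 and Atp5g2 differed at 36 bases, Atp5g1 and Atp5g3 at 50 and Atp5g2 and Atp5g3 at 53.

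Respiratory genes are known targets of NRF1, of the ETS factor GABPA, of the estrogen-related receptors (ERR) and of YY1. Promoters of 74 of the 93 symbols were found in the RefSeq table (GRCm38.p6, 250 bases before to 50 after the start), and the letters GCGCATGC (NRF1), CCGGAAG (ETS), TCAAGGTCA (ERR) and AAGATGGCG (YY1) were searched on both strands. The NRF1 letters overlap their own reverse complement, so 1 site can match on both strands 2 bases apart. At least 1 of the 4 was present in 32 of 74 members (43.2%), against 14% of 27025 genes and 17.9% of 17492 protein-coding genes. NRF1 letters were in 12 members (16.2%, against 3.94% of protein-coding genes), ETS letters in 18 (24.3%, against 12.9%), YY1 letters in 8 (10.8%, against 2.14%) and ERR letters in 2 (2.7%, against 0.377%). By complex, 12 of 33 promoters of complex I held a match, 2 of 3 of complex II, 3 of 5 of complex III, 3 of 13 of complex IV, 8 of 13 of complex V and 4 of 7 of the assembly factors. The YY1 letters lay after the start in 7 of the 8 members that had them (87.5%, against 61% of protein-coding genes with a match). A match is a string of letters and no measured binding.

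Stretches before the start of 5 members that were higher in liver are shown, 1 or more for each kind of match except YY1, with the match in capitals and the part covered by annotated exons left off. They run 5′ to 3′ on the gene's strand, minus in each case. The first base of the match lies 46 bases before the start in Sdhd (chr9:50603850-50603909), 66 in Uqcr11 (chr10:80406831-80406941), 83 in Ndufa6 (chr15:82354323-82354411), 102 in Atp5e (chr2:174464106-174464221) and 52 in Atp5g3 (chr2:73911327-73911446).
Sdhd, ETS: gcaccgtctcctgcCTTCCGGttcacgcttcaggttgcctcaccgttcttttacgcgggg
Uqcr11, ETS: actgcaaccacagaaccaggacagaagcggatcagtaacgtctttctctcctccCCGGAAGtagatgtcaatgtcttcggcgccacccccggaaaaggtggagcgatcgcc
Atp5e, ETS: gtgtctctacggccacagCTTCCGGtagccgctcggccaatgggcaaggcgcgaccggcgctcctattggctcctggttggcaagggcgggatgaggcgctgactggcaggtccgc
Ndufa6, NRF1: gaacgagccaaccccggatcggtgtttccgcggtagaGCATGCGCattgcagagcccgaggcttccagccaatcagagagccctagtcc
Atp5g3, ERR: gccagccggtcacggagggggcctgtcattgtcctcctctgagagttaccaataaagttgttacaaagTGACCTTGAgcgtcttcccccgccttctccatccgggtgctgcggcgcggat
The 5 genes were chosen with their values known, and Uqcr11 stood at 21.1, 26.7 and 29.5 CPM in brain and 21.96, 54.7 and 92.1 CPM in liver. Members called lower in liver with all libraries held matches too, such as Ndufaf5 (NRF1) and Atp5l (NRF1 and ETS). A link between matches and tissue level was not tested.

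After one year of cyclic KD, no member differed between KD and CD liver at an adjusted p of 0.05, and neither did any other gene (0% of 18002 genes, edgeR). DESeq2 called 86 genes higher and 91 lower but no member, and limma called none. At an unadjusted p of 0.05, 2 of 87 members passed, against 15.5% of all genes. The direction was nonetheless one-sided, with 79 of 87 log2 differences (KD minus CD) above 0 and a median of 0.16, against 0.04 over all genes. The medians were 0.13 in complex I (34 of 38 above 0), 0.20 in complex II (4 of 4), 0.21 in complex III (8 of 8), 0.15 in complex IV (11 of 12), 0.18 in complex V (16 of 17) and 0.14 in the assembly factors (6 of 8). Gm10800, a predicted gene, took 1.23% to 2.39% of counts in 5 of the 8 KD livers and 1.61% in 1 of the 8 CD livers, against at most 0.0058% in the others, and 42868 to 47702 genes had a count in those 6 against 25030 to 28259. Without those 6 libraries 69 of 89 members were above 0, with a median of 0.07 (all genes -0.03). Bile duct markers were above 0 in 6 of 6 genes, with a median of 2.21 and sums of 46.7 to 232 CPM on CD and 44.3 to 326 CPM on KD, and their part was not tested.

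That direction rested on CD livers 3, 5, 6 and 7. Without them the log2 difference of 76 members turned, 5 of 87 members were above 0 and the median was -0.28 (all genes 0.12), with -0.28 in complex I, -0.29 in complex II, -0.32 in complex III and -0.26 in complexes IV and V and in the assembly factors, and again none was called. In 77 of the 87 members all 4 lay below the other CD livers, and in 82 the KD median was below the median of those others. The turn therefore follows from which livers were left out and is no separate result. Summed over complexes I to V, the lowest and highest of those 4 livers had 2894 and 4216 CPM, of the remaining CD livers 6679 and 7816 CPM, and of the KD livers 4223 and 7181 CPM. The group means were 5251 ± 2027 CPM on CD and 5894 ± 1059 CPM on KD (SD, n = 8). The KD livers thus lay between the 2 sets of CD livers and overlapped the upper one.

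**Figure D3:**
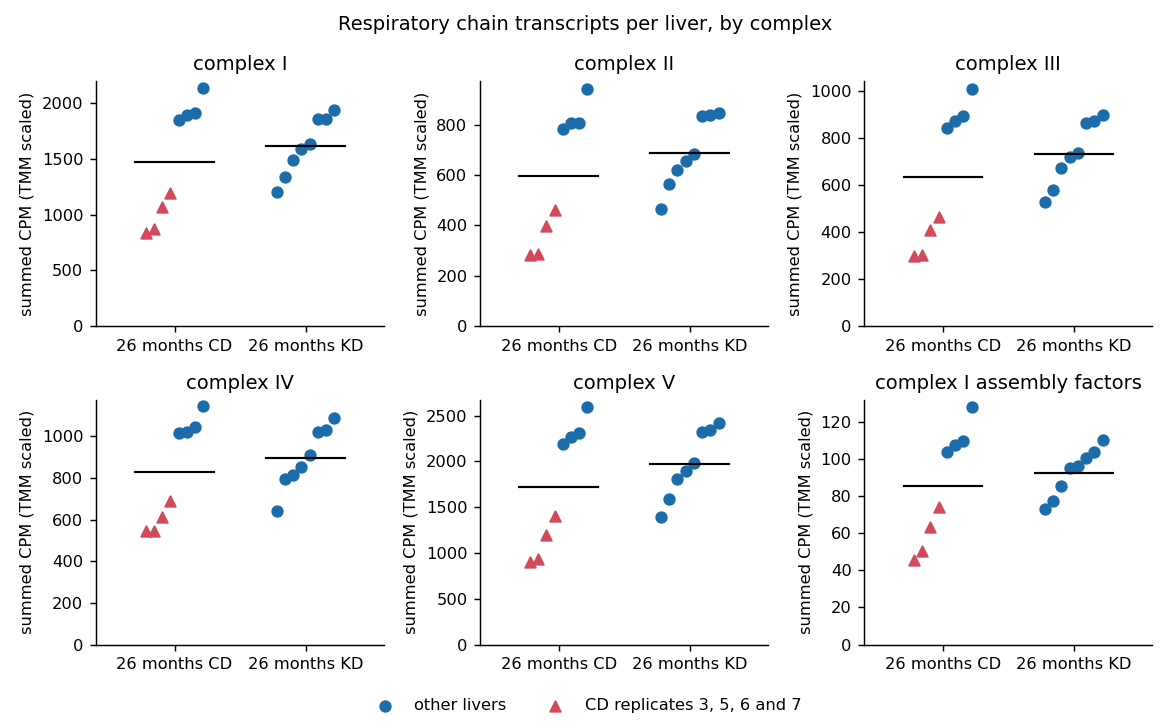
Summed CPM (vertical axis) of each complex in each of the 8 CD and 8 KD livers. Triangles are CD livers 3, 5, 6 and 7, circles are the other livers, and the line is the group mean. In every complex the triangles lie under the other CD livers, for complex III at 299 to 462 CPM against 842 to 1005 CPM.

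All complexes were low together in the 4 livers. Complex I summed to 832 to 1197 CPM against 1848 to 2132 CPM in CD livers 1, 2, 4 and 8, complex II to 281 to 460 against 783 to 940, complex IV to 544 to 691 against 1018 to 1146, complex V to 905 to 1405 against 2188 to 2592 and the assembly factors to 45.5 to 74.3 against 104 to 128. The hepatocyte markers of these livers were lower as well. For every 100 CPM of hepatocyte markers the subunits had 17.8 to 22.8 CPM (median 21.4) in the 4 livers. The remaining CD livers had 16.8 to 19.4 CPM (median 19.25) and the KD livers 16.1 to 18.7 CPM (median 17.5). The ranges overlapped, and the median was highest in the 4 livers. The share of counts from mitochondrial DNA was low there too, at 1.68% to 1.91% against 2.998% to 3.97% and 2.61% to 4.12%. The part of the cell markers in the diet result was not tested.

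**Figure D4:**
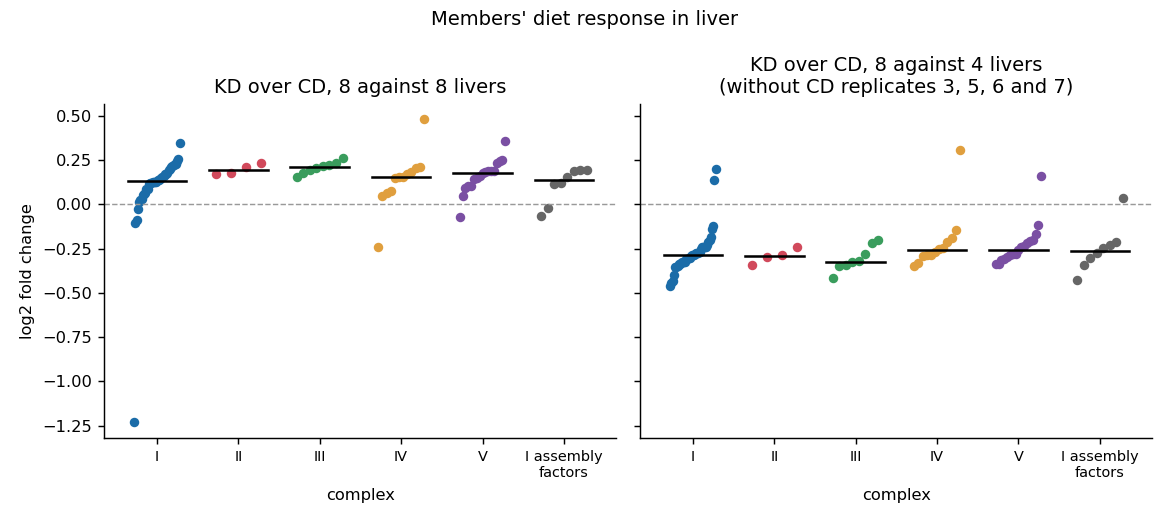
Log2 difference between one-year KD and CD liver (vertical axis) for each tested member, by complex, with the black line at the median. The panels show the fit of all 16 livers and the fit without CD livers 3, 5, 6 and 7, where the median over members moves from 0.16 to -0.28.

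The member with the smallest p of each complex shows how wide the CD livers were. Sdhd had a lowest, median and highest level of 56.8, 122 and 194 CPM on CD and 95.6, 132 and 175 CPM on KD, a log2 difference of 0.21 (SE 0.25), and -0.29 without the 4 livers. Uqcr10, a small complex III subunit, had 16.9, 35.98 and 53.96 CPM on CD and 31.0, 40.0 and 51.1 CPM on KD, a difference of 0.26 (SE 0.24), and -0.22 without them. Atp5k, the e subunit that helps ATP synthase pair up, had 3.92, 6.84 and 12.4 CPM on CD and 6.12, 9.11 and 15.2 CPM on KD, a difference of 0.36 (SE 0.27), and -0.17 without them. In each case the KD range lay largely inside the CD range. Cox7a1 had 0.64 to 1.24 CPM on CD and 0.75 to 1.75 CPM on KD, a difference of 0.48 (SE 0.21, adjusted p = 0.31, edgeR), and 0.30 without the 4 livers. Ndufa4l2 had 13.8 CPM in CD liver 3, 0.88 to 2.79 CPM in the 7 remaining livers of that diet and 0.71 to 1.90 CPM on KD, a difference of -1.23 (SE 0.56, adjusted p = 0.31, edgeR), which was -0.22 without CD liver 3 and turned to 0.20 without the 4 livers. Ndufaf5 had 4.12, 5.40 and 6.01 CPM on CD and 4.68, 5.53 and 6.88 CPM on KD, a difference of 0.12 (SE 0.11), and 0.04 without the 4 livers.

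In the brain on CD, age was compared between 12 and 26 months. No member passed the adjusted test with edgeR, DESeq2 or limma, against 1.26% of 22079 genes (edgeR). At an unadjusted p of 0.05, 14 of 90 members were higher at 26 months and none was lower, against 7.82% of all genes higher. The log2 differences were small, with 75 of 90 above 0 and a median of 0.08 (all genes -0.002). The medians were 0.09 in complex I (35 of 38 above 0), 0.07 in complex II (4 of 4), 0.10 in complex III (7 of 8), 0.12 in complex IV (14 of 15) and 0.04 in complex V (12 of 17), and the assembly factors were at -0.01 with 3 of 8 above 0. The 14 were Ndufc2, Ndufb11, Ndufb4, Ndufs6, Ndufs7, Ndufv3 and Ndufa2 of complex I, Sdhb, Uqcrb, then Cox7a2l, Cox7b and Cox6c of complex IV, and Atp5c1 and Atp5mpl of complex V. Their number was 29 with limma, 23 without the brains high in Gm10800, 7 with the replicate number as a block, 2 without the filter, and as low as 7 when 1 library was left out (12-month CD brain 16) or 8 (12-month CD brain 7 or 26-month CD brain 1). The share of all genes at an unadjusted p of 0.05 was not computed under these alternatives, so these numbers have no background beside them.

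Ndufc2 stood at 63.8, 56.2, 57.9, 60.4 and 55.4 CPM in the 5 brains of 12 months and at 59.2, 67.3 and 81.4 CPM (lowest, median, highest) in the 8 of 26 months. The groups overlapped and the log2 difference was 0.22 (SE 0.07, adjusted p = 0.17, edgeR). Uqcrb stood at 41.3, 43.4, 40.3, 43.7 and 38.8 CPM and at 37.4, 49.4 and 57.9 CPM, a difference of 0.23 (SE 0.09, adjusted p = 0.24, edgeR). Here the lowest aged brain was under all the younger ones. Cox7a2l stood at 54.1, 57.7, 58.5, 54.2 and 59.5 CPM and at 55.4, 65.1 and 73.5 CPM, a difference of 0.18 (SE 0.07, adjusted p = 0.26, edgeR). Sdhb stood at 64.2, 58.5, 60.2, 62.6 and 61.4 CPM and at 56.0, 68.7 and 80.7 CPM, a difference of 0.17 (SE 0.08, adjusted p = 0.39, edgeR). Atp5c1, the γ subunit that turns inside the catalytic head, stood at 116, 115, 113, 118 and 108 CPM and at 113, 123 and 140 CPM, a difference of 0.13 (SE 0.05, adjusted p = 0.28, edgeR). In all 5 genes the aged median lay above every 12-month brain while the aged range reached down into or below theirs. Ndufaf6 had the smallest p among the assembly factors with a difference of -0.06 (SE 0.09, adjusted p = 0.91, edgeR).

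The aged brains varied more than the younger ones. Summed over complexes I to V the 12-month brains had 4146 to 4291 CPM, while the aged brains 1, 2 and 8 had 4772 to 4961 CPM, brain 6 had 4497 CPM and the other 4 had 4095 to 4186 CPM. Other measures moved with age as well. Oligodendrocyte markers were above 0 in 7 of 7 genes, 6 of them at an unadjusted p of 0.05, with sums of 2788 to 4318 CPM at 12 months and 3875 to 5841 CPM at 26 months. Choroid plexus markers were below 0 in 8 of 8 (197 to 631 CPM and 58.4 to 693 CPM). The predicted gene Gm10800 took 0.00046% to 0.0013% of counts at 12 months and 0.055% to 1.22% at 26 months, with no overlap. The part of the oligodendrocyte and choroid plexus markers in the age result was not tested. Without the brains high in Gm10800, 76 of 89 members were above 0. Of the aged CD brains, that fit left out only brain 5 (1.22%). Those it kept held 0.055% to 0.483%, above every 12-month brain, so Gm10800 and age could not be told apart.

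**Figure D5:**
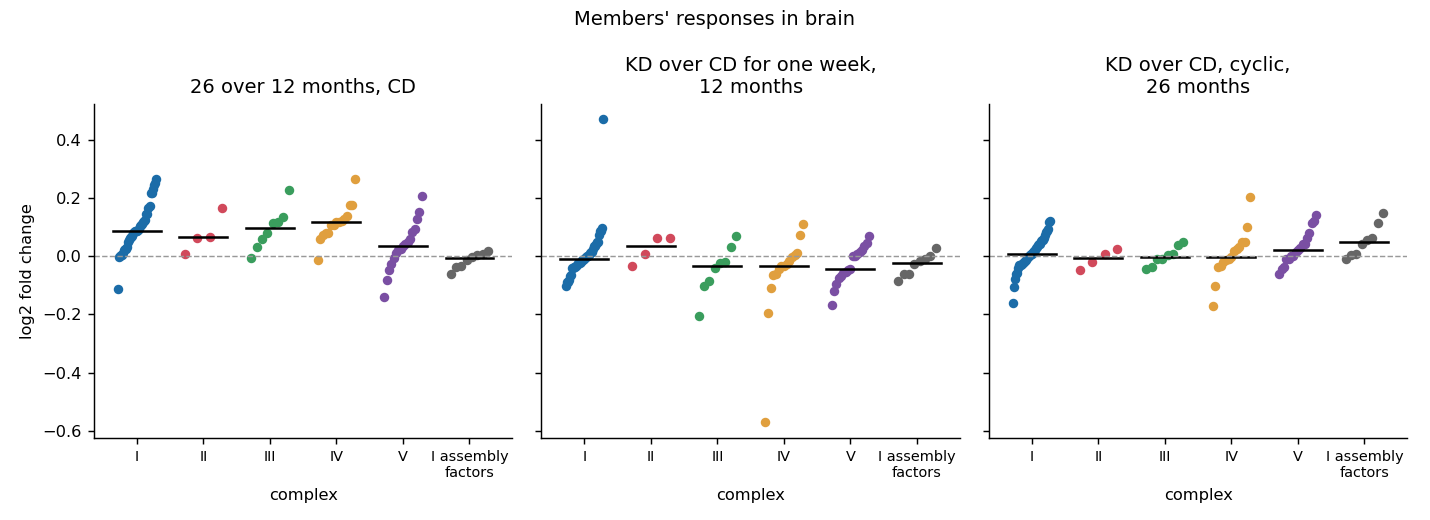
Log2 difference (vertical axis) of each tested member, by complex, for aging on CD, one week of KD at 12 months and one year of cyclic KD at 26 months, with the black line at the median of each complex. The medians over members are 0.08, -0.02 and 0.01.

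After one week of KD at 12 months no member passed the adjusted test (0.00453% of 22079 genes, 1 gene, did so) and none passed an unadjusted p of 0.05, which 2.65% of genes did (edgeR, with 0 members called by DESeq2 and limma). The median was -0.02, with 34 of 90 above 0. The smallest p among members was that of Uqcr11, at 31.4, 27.8, 23.0, 28.4 and 28.4 CPM in the 5 CD brains and 19.6, 23.2 and 29.5 CPM in the 7 KD brains, a log2 difference of -0.21 (SE 0.10). Sdha differed by 0.06 (SE 0.06), Atp5j, the coupling factor F6, by -0.10 (SE 0.07) and Ndufaf4 by -0.08 (SE 0.08). The low genes Cox6a2 (-0.57, SE 0.34) and Ndufa4l2 (0.47, SE 0.27) had larger values with larger errors. Hindbrain markers were above 0 in 7 of 7 genes with a median of 1.57 (0.73 to 106 CPM on CD, 2.43 to 335 CPM on KD), and their part was not tested.

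In the aged brain the one-year KD was compared with CD. No member and no gene passed the adjusted test (0%), and no member passed an unadjusted p of 0.05, which 4.53% of genes did (edgeR, with 0 members called by DESeq2 and limma). The median was 0.01 with 53 of 90 above 0. Ndufb4, the complex I member with the smallest p, had 11.7, 15.04 and 19.06 CPM in the 8 CD brains and 11.4, 13.5 and 15.1 CPM in the 8 KD brains, a log2 difference of -0.16 (SE 0.08). Atp5d differed by 0.12 (SE 0.06), Cox7a2l by -0.10 (SE 0.06), Ndufaf5 by 0.11 (SE 0.07), Sdhb by -0.05 (SE 0.07) and Uqcr11 by 0.05 (SE 0.09). Hindbrain markers were below 0 in 7 of 7 genes with a median of -1.04. The 26-month CD brains enter both this comparison and that of age. The difference between the one-year and the one-week effect was tested directly, and 0% of genes and no member passed (edgeR, with 0 members at an unadjusted p of 0.05 and 0 called by DESeq2 and limma), with a member median of 0.03 and 58 of 90 above 0. The 8 assembly factors were all above 0 there, with a median of 0.07.

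Genes of the same pathway outside the naming rule were counted from lists. Their shares of calls between the tissues are to be read against 77.9% of all genes, and against 68.7% without CD livers 3, 5, 6 and 7. Of the subunits made from mitochondrial DNA, 8 were tested between the tissues and none passed, with a median of 0.24, and without the 4 livers 7 of 9 were higher in liver with a median of 0.64. In KD liver all 7 tested were above 0 with a median of 0.39 and none called, and without the 4 livers 1 of 8 was above 0 with a median of -0.10. Their summed CPM was 13996 to 17198 in the 4 livers, while CD livers 1, 2, 4 and 8 had 31794 to 42829 and the KD livers 23106 to 45205. In the aged brain 8 of 9 were above 0, 4 of them at an unadjusted p of 0.05 (mt-Nd1, mt-Nd3, mt-Nd5 and mt-Nd6), and none was called. Among 13 nuclear genes of the chain that the naming rule misses, 8 were higher in liver and 2 lower (76.9% called), and 10 and 2 without the 4 livers. The electron transfer flavoproteins, which bring electrons from fatty acid oxidation to ubiquinone, were among the higher ones (Etfb 3.30, Etfa 2.84 and Etfdh 2.50 on the log2 scale), as was Cyc1, cytochrome c1 of complex III (0.64). The ADP/ATP carriers split, with Slc25a4 lower in liver (-3.66) and Slc25a5 higher (1.52), and Atpif1, an inhibitor of ATP synthase, was lower (-1.61). Slc25a4 was at -5.55, Atpif1 at -2.65 and Cyc1 at 1.12 without the 4 livers. Of 41 assembly factors of other complexes 17 were higher in liver and 10 lower (65.9%), from Coa5 (1.11) to Lyrm7 (-2.23), and 22 and 7 without the 4 livers. Of 13 citric acid cycle genes 5 were higher and 3 lower (61.5%), with Suclg2 (3.77) and Idh3a (-1.68) at the ends, and 6 and 3 without the 4 livers. Of 19 regulators 11 were higher and 3 lower (73.7%), and 9 and 6 without the 4 livers. Gabpa (1.18) and Nrf1 (0.43) were higher in liver while the coactivator Ppargc1a (-2.15) and the receptor Esrrg (-3.91) were lower. Nrf1 was not called without the 4 livers (0.24, adjusted p = 0.055, edgeR) and the other 3 were. No gene of these 5 lists passed the adjusted test in the liver diet comparison or in any brain comparison (edgeR).

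The diet effect in liver was also set against that in brain. No member passed the test of the difference (edgeR, with 0 at an unadjusted p of 0.05 and 0 called by DESeq2), against 0.119% of 23556 genes, and the median of the members was 0.07 with 67 of 90 above 0, close to 0.08 over all genes. Without CD livers 3, 5, 6 and 7 it was -0.33 with 7 of 90 above 0, against 0.21 over all genes, and no gene was called (0%). Limma with sample quality weights called 32 members, and its share of calls over all genes is not given here. It gave CD livers 5 and 7 weights of 1.06 and 0.97 and the other 6 CD livers 0.25 to 0.44. KD livers 14, 15 and 16 had weights of 2.03, 1.94 and 2.4 and the other KD livers 0.26 to 0.97.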

How the data were processed

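RNA from whole brain and liver was depleted of ribosomal RNA and sequenced, and the authors trimmed the reads (Trimmomatic), aligned them to GRCm38 (STAR) and counted them per gene (RSEM), with versions and strand setting not given in the sources used here. The authors deposited counts, 1 whole number per gene and library, in 1 table. All 44 libraries were used. Symbols and coordinates came from GENCODE M21, in which 54409 of 54446 identifiers were found.

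Counts were tested with the quasi-likelihood test of edgeR 4.0.16 (R 4.3.3), with filterByExpr, TMM scaling and Benjamini-Hochberg adjustment over all genes at 0.05. Livers, the 28 brains, and the 32 libraries of 26 months (for tissue comparisons) were each fitted once. CPM was computed from these counts with TMM library sizes, within each tissue for levels, shares and diet or age comparisons and across tissues for the comparison of liver with brain and of gene pairs. The standard error is the log2 difference divided by the root of F. DESeq2 1.42.0, limma 3.58.1 with sample weights, other scalings and filters, a replicate block and left-out libraries were alternatives. The fit was also run on counts simulated with a single fixed spread per fit. That run cannot show how the fit behaves with the CD livers that stood apart or with libraries high in Gm10800. Pseudogenes were searched with BLAST+ 2.17.0. Members on opposite strands overlapping other exons numbered 29, and 6 overlapped on the same strand, so their counts may include the neighbour.

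Genes named were the smallest p of each complex per comparison, the 5 largest tissue differences each way, the highest and lowest levels of each complex, and the isoform sets. Other members were named for their role, with their values known. The members and lists were chosen with earlier results of these data known. List symbols 2010107E04Rik and Coa1 were not matched. The values of 1 member are not reported here by name.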

Additional observations from a re-analysis of the deposited data

Results flagged for a closer look

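In 82 groups of values, each the 5 to 8 libraries of a group for a named member or the sum of a complex, 5 held a library whose gap to the nearest of the others was too large for its group by Dixon's test at 95%. Chance alone gives such a library in about 1 of 20 groups. Sdha in brain was at 237 CPM in 12-month KD brain 5, with the other 6 at 208 to 218 CPM. The genes of complex III summed to 353.5 CPM in 26-month KD brain 14, with the other 7 at 419 to 468 CPM, and Uqcr11 in the same brain was at 21.6 CPM, with the others at 27.9 to 31.97 CPM. Ndufa4l2 was at 13.8 CPM in CD liver 3, with the others at 0.88 to 2.79 CPM. Atp5k was at 15.2 CPM in KD liver 14, with the others at 6.12 to 10.3 CPM.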

How the results depend on the processing

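No member was called in the diet or age comparisons within a tissue under any alternative or left-out library. Tissue calls moved from 42 higher and 12 lower to 21 and 20 without the filter, to 20 lower with total counts alone (all-gene median -0.35 instead of -0.17, and -0.60 without the filter), and to 67 and 7 without CD livers 3, 5, 6 and 7, an alternative added after seeing the data. Left-out libraries gave 35 to 52 higher and 10 to 12 lower. Of these alternatives, the share of all genes called is given only for the fit without the 4 livers. In the aged brain the 14 members at an unadjusted p of 0.05 became 29 with limma, 2 without the filter, 7 with the replicate block and 23 without brains high in Gm10800, and 7 to 19 with a library left out. The share of all genes at that p was computed for the main fit alone. Limma called 32 members in the difference of diet effects between tissues, with no share of all genes beside that number. Without the 4 CD livers the liver median reversed to -0.28 and that of the difference to -0.33, and with a library left out the difference ran from -0.0027 to 0.18 (-0.0027 being the only reversal). Single members reversed without the 4 livers: Ndufa4l2 (0.20), Sdhd (-0.29), Uqcr10 (-0.22) and Atp5k (-0.17) in the diet comparison, and Cox4i2 (-0.95) and Cox8a (0.25) between tissues. With total counts alone and without the filter, Cox4i1 went to -0.0024 and -0.053, Cox7a2 to -0.066 and -0.11, Cox7b to -0.13 and -0.18 and Atp5g1 to -0.054 and -0.10, and with limma Cox7a2 went to -0.029, Cox7b to -0.090 and Atp5g1 to -0.060. Ndufaf5 in liver was -0.015 without the filter, Ndufaf6 in aged brain 0.00028 with limma, and Cox8a ran from -0.13 to 0.011 with a library left out. The settings with total counts alone, without the filter and with limma kept every library. The cause of these reversals was not tested. Single members between the tissues crossed the threshold in 38 further values, 28 calls lost and 10 gained. The gains were Cox4i1, Cox6a1, Cox7a2, Cox7b and Atp5g1 without the 4 livers, Cox4i1 without CD liver 6, Cox6a1 without CD liver 3 or 6, and Cox8a with total counts alone (-0.28) and without the filter (-0.34). The losses were of Ndufa4 (14 values), Cox6b1 (9), Cox7a2l (3), Cox6b2 (1) and Ndufa4l2 (1). The remaining 1096 values of single members kept their direction and side of the threshold, and 445 values of counts and medians stayed within the limits set for them. Without the filter the median of all genes in the liver diet comparison was 0.82.

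Same-numbered brains and livers did not deviate together (15 pairs, r from -0.13 to 0.21, 2 over 0.1), nor did CD brains of 12 and 26 months (3 pairs, -0.25 to 0.20, 1 over 0.1). Organs of the same mouse need not deviate together, so these values cannot show whether a number marks 1 mouse. The main fit took all libraries as independent. With the replicate block, 33 members were higher in liver and 12 lower, the tissue median was 0.24, the age median 0.07 and that of the difference of diet effects 0.16, and the calls of Cox6b1 (adjusted p = 0.059) and Ndufa4 (0.11, edgeR) were lost. The common coefficient of variation was 0.45 in liver and 0.21 in brain, so a liver difference had to be larger to be seen.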
